A study of Homo sapiens with 36 samples.

Results

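The transcriptomes of 22Rv1 and C4-2, 2 castration-resistant prostate cancer cell lines, were compared in mono-culture. 22Rv1 was established from a xenograft that regrew after castration of the host mouse. C4-2 was derived from LNCaP cells after passage in castrated mice. The comparison used 3 mono-culture libraries of each line, which are 6 of the 36 libraries of a series of 4 lines grown for 5 days in chambers of a horizontal co-culture device, alone or beside partner cells. The labels class 22Rv1 as osteolytic and C4-2 as osteoblastic prostate cancer. Neither group received the osteoclast-inducing cytokine RANKL or a partner cell, and neither line is described as engineered. Both groups grew in αMEM with serum during the experiment, whereas 22Rv1 had been maintained in RPMI 1640 and C4-2 in T-medium and the lines were seeded at different densities, so that line, earlier medium and seeding cannot be told apart. Each group is 1 established line, and where the labels do not say that libraries came from separate days or stocks, p-values measure only the spread between these libraries.

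Androgens drive the growth of luminal prostate cells and switch on genes such as KLK3, which encodes prostate-specific antigen (PSA). Castration-resistant cells grow at low androgen levels and often keep part of this expression programme. Prostate cancer spreads mainly to bone, where tumour cells and bone cells exchange secreted factors.

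The values are scaled counts, which are estimated from abundance per transcript length and are not reads. The 6 libraries summed to 23932472 to 33582290, and 11.4% to 13% of the scaled counts in 22Rv1 and 9.59% to 9.82% in C4-2 came from mitochondrial genes. Levels are given in CPM, the scaled counts of a gene per 1000000 of the library, a scale that follows transcripts per length. What 1 read adds depends on the length of the transcript, so no detection limit in reads is given, and a value of 0 is reported as listed. All 7 luminal prostate epithelial markers, KLK3, KLK2, HOXB13, KRT8 and KRT18 among them, were measured in both lines, with a summed level of 1425 to 1482 CPM in 22Rv1 and 7140 to 7408 CPM in C4-2. The gap lay in KLK3 and KLK2, since the other 5 summed to 1231 to 1270 CPM in 22Rv1 and 1248 to 1308 CPM in C4-2. The 3 basal markers summed to at most 0.972 CPM in any library, with KRT5 at 0 in all 6, the 3 endothelial markers to at most 1.69 CPM, the 4 leukocyte markers to at most 5.65 CPM and the 4 stromal markers to at most 9.55 CPM. The part of these traces in the differences below was not tested, and in bulk RNA fewer cells of a type and less RNA per cell cannot be told apart.

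Of 12397 genes tested, 1892 were higher in 22Rv1 (15.3%) and 1494 were higher in C4-2 (12.1%), at a fold change above 2 and an adjusted p under 0.05 in edgeR. The median log2 fold change over all genes tested was 0.01, and 645 genes in 22Rv1 and 295 in C4-2 were higher by more than 8-fold. The libraries of the 2 lines overlapped in 11 of the 3386 called genes. Of all 12397 tested genes, called or not, 10363 (83.6%) did not overlap, so the lack of overlap adds little to a call. The shares called, 15.3% and 12.1%, are the background for every gene group below, since more than 1 gene in 4 differed (27.3%). The lists of genes were chosen with earlier results of these data known, so their counts are descriptions. A gene was tested where at least 1 of the 6 libraries held 100 scaled counts. Genes near 0 in one line therefore entered only through the line where they were high and had to differ, and the shares given are those of the tested members, not of whole lists.

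Among 20 nuclear receptors, cofactors and prostate lineage factors, 18 were tested, of which 4 were higher in 22Rv1, 2 were higher in C4-2 and 12 were not called. FOXA1, a pioneer factor that opens chromatin in prostate epithelium, was at 277 ± 10.6 CPM in 22Rv1 and 260 ± 4.31 CPM in C4-2 (log2 fold change 0.05, SE 0.04, adjusted p = 0.22). HOXB13, a prostate lineage homeobox factor, was at 104 ± 3.46 CPM and 129 ± 1.73 CPM, a log2 fold change of -0.35 that was below the fold threshold. NR3C1, which encodes the glucocorticoid receptor, was at 3.52, 3.69 and 3.3 CPM in 22Rv1, and at 0.0445, 0 and 0.109 CPM in C4-2. ETV1 (chr7:13891228-13991425, GRCh38), an ETS transcription factor gene, was at 16.6, 17.3 and 14.6 CPM in 22Rv1 and at 0.216, 0.148 and 0.0338 CPM in C4-2. LNCaP, the parent of C4-2, is known for a rearrangement of ETV1, and the C4-2 libraries held almost none of its transcript. C4-2B, a further derivative, was likewise at 0.134 CPM. TRPS1 was 4.96-fold higher in 22Rv1, whereas GRHL2, an epithelial factor, was 3.29-fold and the nuclear receptor coactivator NCOA1 3.07-fold higher in C4-2.

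Androgen-regulated genes were called lower in 22Rv1 more often than higher. Of 30 listed genes, 28 were tested, of which 14 were higher in C4-2 (50%, against 12.1% of all genes), 2 were higher in 22Rv1 (7.14%, against 15.3%) and 12 were not called. The median log2 fold change of those tested was -0.91. KLK3 (chr19:50854915-50860764) was at 52.4, 60.5 and 57.5 CPM in 22Rv1 and at 4603, 4759 and 4720 CPM in C4-2. All C4-2 libraries lay far above all 22Rv1 libraries, and the level was 85-fold higher in C4-2 (log2 fold change -6.41, SE 0.06, adjusted p = 2.2e-12). KLK2, the neighbouring kallikrein gene, was at 146 ± 5.35 CPM and 1328 ± 46.1 CPM, a 9.38-fold difference, and since it is similar in sequence to KLK3 the division of counts between them is uncertain. TMPRSS2, a membrane serine protease, was at 16.5, 18.6 and 15.5 CPM in 22Rv1 and at 154, 155 and 168 CPM in C4-2. TRPM8, a cold-sensing calcium channel of prostate epithelium, was at 0.617 ± 0.0756 CPM in 22Rv1 and 96.2 ± 11.8 CPM in C4-2. ABCC4, a drug and prostaglandin transporter, was at 0.314 ± 0.209 CPM and 4.79 ± 0.899 CPM.

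The group did not move as a whole. HPGD, the enzyme that inactivates prostaglandins, was at 259 to 272 CPM in the 22Rv1 libraries and at 0.809, 1.19 and 1.16 CPM in C4-2, a 249-fold difference in the opposite direction (log2 fold change 7.96, SE 0.08, adjusted p = 2.5e-12). ZBTB10, a zinc finger repressor, was 4.27-fold higher in 22Rv1. FKBP5, KLK4, ACP3, STEAP2 and PMEPA1 were among the 12 genes not called, with log2 fold changes of 0.82, 0.87, -0.67, -0.41 and 0.24.

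The promoters of KLK3 and KLK2 are shown because these are the most strongly expressed androgen-regulated genes of the list in C4-2 and carry a known androgen response element. The sequences are from RefSeq on GRCh38.p14, + strand, at chr19:50854727-50854774 and chr19:50873245-50873292, with 6 bases at the same place of the aligned stretches in capitals.
KLK3: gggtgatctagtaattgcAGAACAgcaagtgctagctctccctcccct
KLK2: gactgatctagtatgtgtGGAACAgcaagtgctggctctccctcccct
The capitals start 170 bases before the start site in KLK3 and 176 bases before it in KLK2. The stretches differ at 7 of 48 positions, and within the capitals by A1G, counted from the 5′ end with the base of KLK3 named first. AGAACA was searched on both strands (its reverse complement is TGTTCT) in the 300 bases from 250 before to 50 after each start site. It was found in 1 of the 10 androgen-regulated genes higher in C4-2 whose promoter was in the table, which was KLK3, in 0 of 1 higher in 22Rv1 and in 2 of 10 that were not called, FKBP5 and PMEPA1. Among all promoters it was found in 14.9%, and among genes tested in 8.59%. The share was 8.31% of the genes higher in 22Rv1 and 9.2% of those higher in C4-2, close to that of all tested genes. A match is a description of the letters in this window and not a binding site.

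Of 27 androgen-metabolizing enzymes, 14 were tested, of which 6 were higher in 22Rv1, 2 were higher in C4-2 and 6 were not called. Without the filter on low counts, 10 were higher in 22Rv1. AKR1C3, which converts androstenedione to testosterone, was at 10.8, 11.1 and 10.1 CPM in 22Rv1 and at 0.356, 0.375 and 0 CPM in C4-2 (log2 fold change 5.43, SE 0.39, adjusted p = 6.8e-07). AKR1C2 was at 4.79 ± 1.02 CPM and 0.663 ± 0.332 CPM. The glucuronidating enzyme gene UGT2B15, whose product inactivates androgens, was at 14.9 ± 2.53 CPM and 0.903 ± 0.989 CPM, and UGT2B10 was at 1.76 ± 1.45 CPM and 0.0902 ± 0.0847 CPM. AKR1C and UGT2B genes have near-identical copies, so the division of counts within each family is uncertain. STS, the steroid sulfatase, and DHRS7 were 2.47-fold and 2.32-fold higher in C4-2.

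Of 20 surface proteins and other drug targets of prostate cancer, 17 were tested, of which 8 were higher in C4-2 (47.1%), 3 were higher in 22Rv1 (17.6%) and 6 were not called. The second count depended on the scaling, since 5 were higher in 22Rv1 with library size in place of TMM factors. FOLH1, which encodes prostate-specific membrane antigen (PSMA), was at 113, 123 and 130 CPM in 22Rv1 and at 636, 628 and 639 CPM in C4-2, a 5.34-fold difference (log2 fold change -2.42, SE 0.05, adjusted p = 1.5e-10). PSCA, DLL3 and IGF1R were 11.7-fold, 11.8-fold and 6.28-fold higher in C4-2. In the opposite direction, TMEFF2, a transmembrane protein of the prostate, was at 64.1, 69.9 and 66.4 CPM in 22Rv1 and at 0.137, 0.0938 and 0.104 CPM in C4-2. CD44, the hyaluronan receptor, was at 33.8 ± 2.73 CPM and 0.238 ± 0.0296 CPM, and the HGF receptor gene MET was 3.1-fold higher in 22Rv1.

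**Figure D1:**
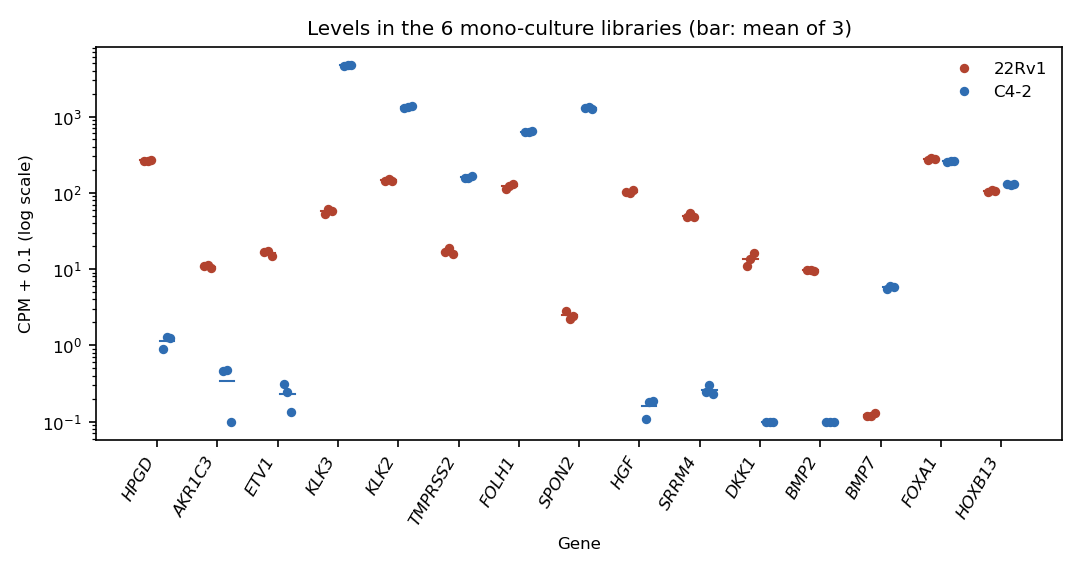
Levels of 15 genes in the 6 mono-culture libraries, as CPM plus 0.1 on a log axis. Each point is 1 library and each short bar the mean of 3, and levels are to be compared between lines within a gene. KLK3 has a mean of 56.8 CPM in 22Rv1 and 4694 CPM in C4-2, the reverse of HPGD, and FOXA1 and HOXB13 differ by less than 2-fold.

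Factors with which prostate cancer cells act on bone were called in both directions. Osteoblastic factors stimulate bone formation, and osteolytic factors favour its loss. Of 20 osteoblastic factors, 11 were tested, of which 3 were higher in 22Rv1 and 4, KLK3 included, were higher in C4-2. BMP2, a bone morphogenetic protein, was at 9.52, 9.51 and 9.48 CPM in 22Rv1 and at 0 in all 3 C4-2 libraries. No fold is given against a group listed at 0. BMP7, a further member of that family, showed the opposite, with 5.33, 5.98 and 5.67 CPM in C4-2 and 0.0171, 0.0181 and 0.0287 CPM in 22Rv1. TGFB1 was at 10.5 ± 0.304 CPM in 22Rv1 and 0.75 ± 0.132 CPM in C4-2, and TGFB3 at 14.8 ± 1.77 CPM and 1.51 ± 0.41 CPM. PDGFA and WNT7B were 10.8-fold and 7.31-fold higher in C4-2. Of 16 osteolytic factors, only DKK1, a secreted WNT inhibitor, passed the minimum, at 11, 13.6 and 16.4 CPM in 22Rv1 and 0 in all 3 C4-2 libraries. Without the filter on low counts, 8 osteoblastic and 6 osteolytic factors were higher in 22Rv1, and 2 osteolytic factors were higher in C4-2. Over 12 mono-cultures, 3 osteolytic factors were higher in 22Rv1 and 1 in C4-2. With the length scaling undone, the numbers were 2 and 1 of 3 tested. Of 19 bone matrix genes, 3 were tested, of which 1 was higher in each line. Without the filter, 2 were higher in 22Rv1 and 4 in C4-2, and in the fits over 12 and 20 libraries 2 were higher in C4-2, as were 2 with the length scaling undone. ALPL, the tissue-nonspecific alkaline phosphatase, was at 5.97, 6.76 and 7.16 CPM in 22Rv1 and at 0 in all 3 C4-2 libraries, and COL1A1 was at 2.62 ± 0.442 CPM and 5.56 ± 0.606 CPM. The difference of COL1A1 fell below 2-fold without the second 22Rv1 library (log2 fold change -0.99) and in limma on log2(CPM + 1), which understates low genes (-0.89).

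Genes of antigen presentation and of the interferon response that were called in mono-culture were all higher in C4-2 in this fit. Of 20 genes of MHC class I presentation, 17 were tested, of which 0 were higher in 22Rv1, 6 were higher in C4-2 and 11 were not called. HLA-B, HLA-C and HLA-F were 10.2-fold, 8.4-fold and 7.37-fold higher in C4-2. B2M, the invariant light chain, was not called, with a log2 fold change of 0.19. Without the filter on low counts, 1 gene of this list was called higher in 22Rv1, as was 1 in the fits over 12 and 20 libraries and 1 with RAW264.7 and RANKL. HLA genes are highly variable between people, so a difference in mapping between the lines cannot be told apart from a difference in level. Of 41 interferon-stimulated genes, 19 were tested, of which 0 were higher in 22Rv1, 5 were higher in C4-2 and 14 were not called. Without the filter, 3 were higher in 22Rv1 and 8 in C4-2, and 1 was higher in 22Rv1 in the fits over 12 and 20 libraries and with the length scaling undone. IFI6 was at 0.856 ± 0.156 CPM in 22Rv1 and 9.34 ± 0.284 CPM in C4-2, and BST2, HERC6 and IFITM3 were 4.54-fold, 2.66-fold and 2.67-fold higher in C4-2.

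Cytokine signalling components moved in both directions. Of 23 JAK kinases, cytokine receptors and STATs, 19 were tested, of which 3 were higher in 22Rv1, 5 were higher in C4-2 and 11 were not called. Without the filter, and in the fits over 12 and 20 libraries, 5 were higher in 22Rv1. JAK1 was low in both lines, at 3.7 ± 0.706 CPM and 3.39 ± 0.671 CPM, against 47.7 CPM in the DU145 mono-cultures. STAT6, the mediator of IL-4 signalling, was at 58.0, 60.6 and 56.8 CPM in 22Rv1 and at 1.57, 1.18 and 1.7 CPM in C4-2 (log2 fold change 5.23, SE 0.09, adjusted p = 4.7e-11). STAT3, IL6R and OSMR were 3.6-fold, 4.99-fold and 2.93-fold higher in C4-2, and so was the feedback inhibitor SOCS2, by 6.33-fold. Another feedback inhibitor, CISH, was 3.11-fold higher in 22Rv1. Of 31 NF-kB and interleukin-1 signalling genes, 22 were tested, of which 3 were higher in 22Rv1 and 4 in C4-2. Without the filter, and in the fits over 12 and 20 libraries, 5 were higher in 22Rv1. With library size in place of TMM factors, 4 were higher in 22Rv1 and 3 in C4-2, and with the length scaling undone 6 were higher in 22Rv1. Without the third 22Rv1 library, the 4 became 1, since IL1R1, IRAK1 and NFKB1 fell below 2-fold (log2 fold changes -0.87, -0.95 and -0.97), and in limma on log2(CPM + 1) they became 2. NFKBIZ, NFKB2 and REL were 4.6-fold, 3.26-fold and 2.97-fold higher in 22Rv1, and IKBKG, which has a near-identical pseudogene copy, was 3.97-fold higher in C4-2.

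Of 21 listed neuroendocrine genes, 11 were tested, of which 9 were higher in 22Rv1, 1 was higher in C4-2 and 1 was not called. Of the 9, ONECUT2 and REST reached 100 scaled counts in C4-2 as well, and the others were tested only because 22Rv1 held enough, so that the count says little of the list as a whole. Without the filter, 12 of the 21 were higher in 22Rv1 and 1 in C4-2. The 10 that were not tested had means of at most 2.62 CPM in either line. SRRM4, a neuronal splicing factor, was at 48.0, 54.4 and 48.2 CPM in 22Rv1 and at 0.146, 0.205 and 0.131 CPM in C4-2. SNAP25, of the synaptic fusion machinery, was at 18.7, 18.3 and 16.4 CPM in 22Rv1 and at 0.0249, 0 and 0 CPM in C4-2. SCG3, a granin, and ENO2, neuron-specific enolase, were 85.2-fold and 34.1-fold higher in 22Rv1. DDC, which makes dopamine and serotonin and is known to be expressed in LNCaP cells, was at 9.59 ± 0.801 CPM in 22Rv1 and 72.4 ± 5.84 CPM in C4-2, a log2 fold change of -2.95 that was -1.69 with the length scaling undone. The list was not uniform in function, since REST, the repressor of neuronal genes, was among the 9, at 32.2 ± 2.61 CPM and 13.1 ± 0.291 CPM.

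Epithelial and mesenchymal genes were split. Of 22 genes of the epithelial-mesenchymal state, 17 were tested, of which 3 were higher in 22Rv1, 7 were higher in C4-2 and 7 were not called. TWIST1, a mesenchymal transcription factor, was at 27.3, 29.2 and 30.4 CPM in 22Rv1 and at 0.0919, 0.207 and 0.0325 CPM in C4-2. CDH3, P-cadherin, and SNAI2 were 17.2-fold and 2.82-fold higher in 22Rv1. The epithelial GTPase RAB25 was at 0.473, 0.134 and 0.388 CPM in 22Rv1 and at 72.8, 73.4 and 76.2 CPM in C4-2, and the tight junction gene TJP1 was 4.01-fold higher in C4-2. The mesenchymal genes FN1, fibronectin, and SNAI1 were also higher in C4-2, by 27.1-fold and 7.49-fold. Of 15 keratins, 4 were tested and 2 were higher in 22Rv1, as were 4 without the filter. KRT7 was at 42.6 ± 2.29 CPM in 22Rv1 and 0.93 ± 0.286 CPM in C4-2, and KRT19 at 219 ± 7.75 CPM and 15.2 ± 1.84 CPM, whereas the luminal keratins KRT8 and KRT18 were not called.

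In DNA mismatch repair, all 11 listed genes were tested, of which 3 were higher in 22Rv1, 1 was higher in C4-2 and 7 were not called. MSH3, which takes part in the recognition of larger loops, was 5.19-fold higher in C4-2, and the ligase gene LIG1 was 3.63-fold higher in 22Rv1.

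Of 24 tested genes listed for the PI3K pathway, 2 were higher in 22Rv1 (8.33%) and 3 in C4-2 (12.5%). The first count fell to 1 with DESeq2, with the length scaling undone, without the filter on low counts, in the fit over 20 libraries, and without the first or the second library of 22Rv1 or the second or the third of C4-2, as PHLPP1 was no longer called. IRS2, an insulin receptor adaptor, was 14.7-fold higher in 22Rv1, and PDK1, SESN3 and PIK3CB were 3.67-fold, 2.3-fold and 2.13-fold higher in C4-2. The symbol PDK1 stands for pyruvate dehydrogenase kinase 1, a metabolic enzyme. It is not a gene of the PI3K pathway, although the list and the count of 3 include it. Of 29 tested cell cycle genes, 23 were not called. CCND1, cyclin D1, was at 1262, 1280 and 1227 CPM in 22Rv1 and at 184, 195 and 182 CPM in C4-2, a 6.53-fold difference. E2F2 and the inhibitor CDKN1B were 3.27-fold and 2.61-fold higher in 22Rv1, and CDK1 and CCND3 were 2.61-fold and 2.24-fold higher in C4-2.

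Of 24 tested genes of cholesterol and fatty acid synthesis, 4 were higher in 22Rv1 and 5 in C4-2. Those higher in 22Rv1, MVD, HMGCS1, CYP51A1 and FDPS, belong to the mevalonate and sterol pathway and were 2.1-fold to 2.78-fold higher. Those higher in C4-2 included the fatty acid elongase ELOVL7 by 8.65-fold, ACSL1 by 6.43-fold and SREBF1 by 2.44-fold. Of 25 WNT targets and feedback genes, 15 were tested, of which 3 were higher in 22Rv1 and 4 in C4-2, and without the filter 5 were higher in 22Rv1. In limma on log2(CPM + 1), 2 were higher in C4-2. LGR5, a receptor of stem cells, was at 8.3, 9.67 and 9.23 CPM in 22Rv1 and at 0.0125, 0 and 0 CPM in C4-2, and LEF1 and RNF43 were 2.71-fold and 2.26-fold higher. TNFRSF19, ASCL2 and KREMEN1 were 9.76-fold, 5.8-fold and 2.43-fold higher in C4-2. Of 11 metallothioneins, small metal-binding proteins with similar sequences, 5 were tested and 4 were higher in 22Rv1. MT1E was at 82.6 ± 8.02 CPM in 22Rv1 and 0.264 ± 0.073 CPM in C4-2, MT1G at 74.7 ± 1.49 CPM and 0.193 ± 0.0528 CPM, and MT1F and MT2A were 2.28-fold and 2.22-fold higher.

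Cancer/testis antigens, germline genes re-expressed in tumours, marked each line by different members. Of 22 such genes, 11 were tested, of which 4 were higher in 22Rv1 and 3 in C4-2, or 5 in C4-2 without the filter. CTAG2 was at 271 ± 5.16 CPM in 22Rv1 and 0.198 ± 0.215 CPM in C4-2, CTAG1B at 117 ± 3.22 CPM and 0.117 ± 0.0322 CPM, MAGEA4 at 157 ± 4.64 CPM and 0.23 ± 0.0391 CPM, and SSX2 at 80.3 ± 7.81 CPM and 0.835 ± 0.155 CPM. PAGE1 was at 0.464, 0.435 and 0.321 CPM in 22Rv1 and at 177, 195 and 188 CPM in C4-2, and PRAME was 6.61-fold higher in C4-2. These families hold near-identical copies, and the level of a single member is uncertain.

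**Figure D2:**
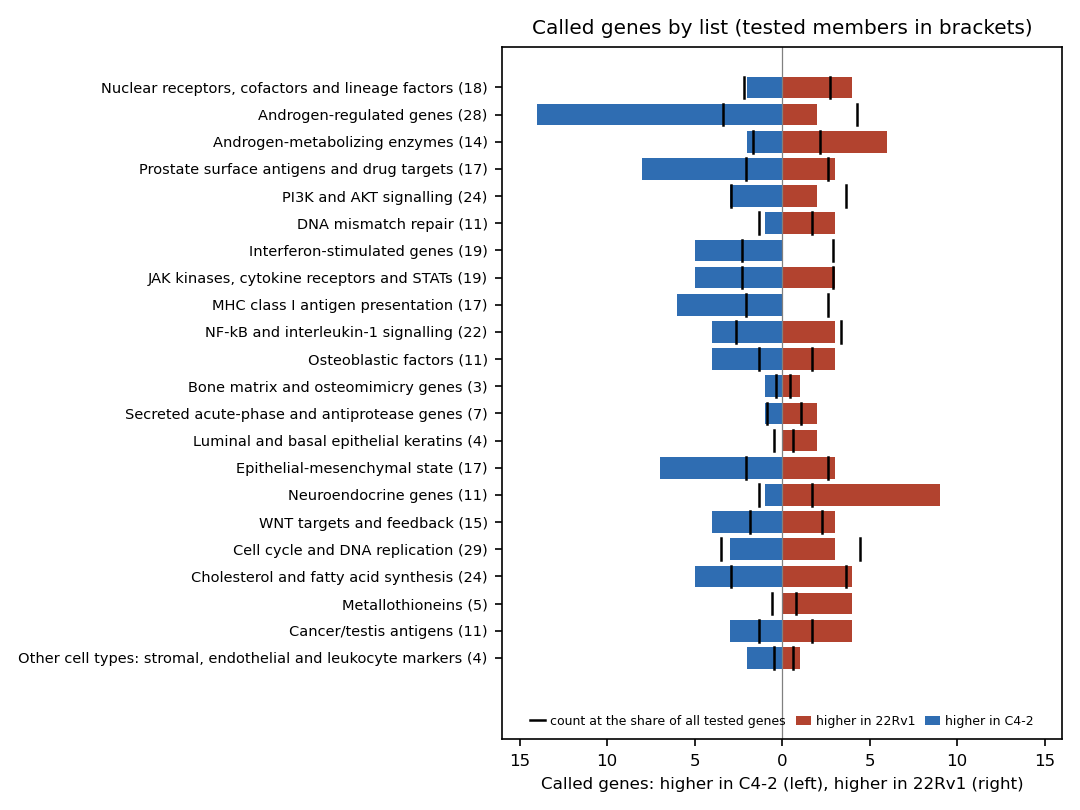
Number of called genes in each list with at least 3 tested members (number in brackets), with genes higher in C4-2 to the left and genes higher in 22Rv1 to the right. The black ticks mark the count that the shares of all tested genes (15.3% and 12.1%) would give for a list of that size, and androgen-regulated genes (14 in C4-2) and neuroendocrine genes (9 in 22Rv1) lie farthest beyond them, the latter through genes that mostly reached the minimum of 100 scaled counts in 22Rv1 alone.

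The largest differences among abundant genes were taken from the 758 called genes in 22Rv1 and 778 in C4-2 with a mean of at least 20 CPM in the higher line and no overlap between libraries. On the side of 22Rv1 these were CACNA2D1, HGF, SSX3, SLC6A15, CTAG2, ALB, CFC1, GJA1, C3orf14 and CTAG1B. HGF (chr7:81699008-81770438), the ligand of MET, was at 101, 99.7 and 109 CPM in 22Rv1 and at 0.00853, 0.0826 and 0.0893 CPM in C4-2. CACNA2D1 (chr7:81946444-82443798), a calcium channel subunit gene next to HGF, was at 30.8 ± 0.786 CPM in 22Rv1 and at 0, 0 and 0.00886 CPM in C4-2. ALB, serum albumin, was at 452, 433 and 464 CPM and at 0.194, 0.644 and 0.214 CPM. GJA1, connexin 43, was at 63.7 ± 2.12 CPM and 0.0429 ± 0.0222 CPM. SSX3, SLC6A15, CFC1 and C3orf14 were at 0.0739 CPM or less in every C4-2 library, against means of 52.6, 20.8, 31.4 and 25.1 CPM in 22Rv1. CFC1 and SSX3 also have near-identical copies.

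On the side of C4-2 they were H2AJ, SPON2, SLPI, PAGE1, IRX4, TRIB2, GAGE12F, GAGE12G, RAB25 and CSTA. SPON2 (chr4:1166932-1208962), a secreted matrix protein, was at 2.75, 2.14 and 2.34 CPM in 22Rv1 and at 1284, 1337 and 1261 CPM in C4-2, a 553-fold difference (log2 fold change -9.11, SE 0.06, adjusted p = 1.3e-12). H2AJ, a histone H2A variant, was at 0.272 ± 0.097 CPM and 243 ± 11 CPM. SLPI, a secreted antiprotease, was at 0, 0.121 and 0.536 CPM in 22Rv1 and at 128, 126 and 126 CPM in C4-2. IRX4, a homeobox factor, TRIB2, a pseudokinase, and CSTA, a cysteine protease inhibitor, were 421-fold, 390-fold and 216-fold higher in C4-2. GAGE12F and GAGE12G carried identical values in every library, which makes them 1 measurement.

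The differences were also unevenly placed along the genome. By chromosome, the median log2 fold change was highest on chromosome 7 (0.42, 612 genes) and chromosome 12 (0.39, 667 genes) and lay between -0.22 and 0.20 on the other autosomes and X. On chromosome 7, 23.2% of genes were higher in 22Rv1 and 7.03% in C4-2, and on chromosome 12 the shares were 22% and 5.85%. The lower quartile of chromosome 12 was 0.02, so that about 3 genes in 4 there had a higher level in 22Rv1. The lowest medians were on chromosomes 15 (-0.22) and 11 (-0.21). With RANKL, with MG63 and with RAW264.7 and RANKL, the medians of chromosome 7 were 0.44, 0.37 and 0.40 and those of chromosome 12 were 0.44, 0.35 and 0.43. Copy number was not measured in these libraries.

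**Figure D3:**
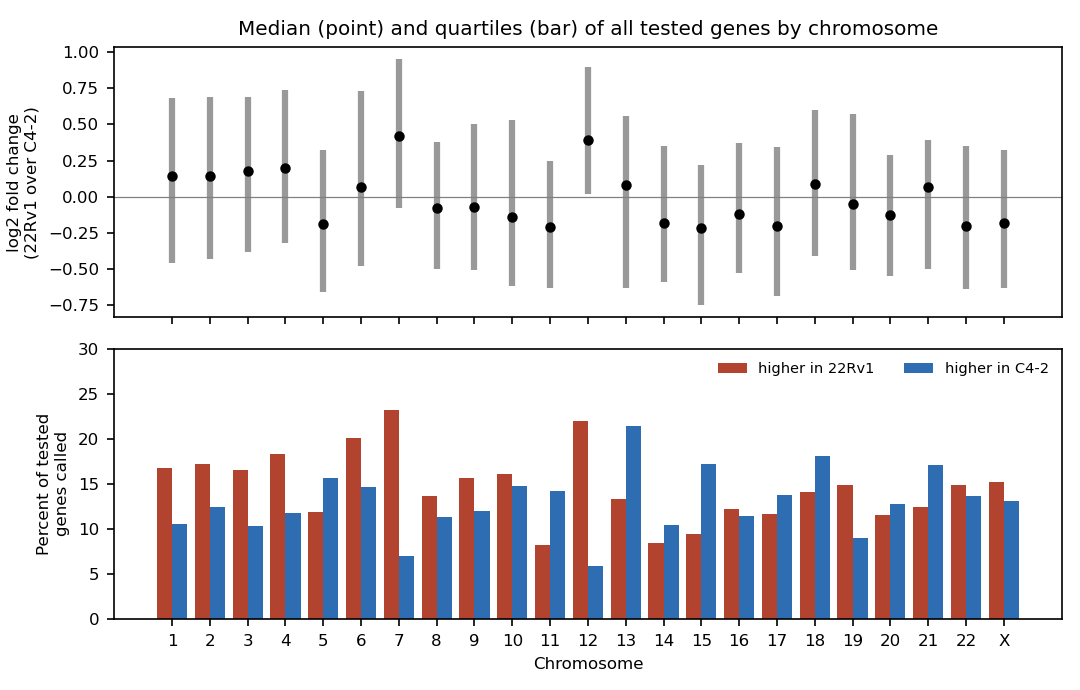
Upper panel, median (point) and quartiles (bar) of the log2 fold change of 22Rv1 over C4-2 for all tested genes by chromosome. Lower panel, percent of tested genes called higher in each line. Chromosomes 7 and 12 have the highest medians (0.42 and 0.39) and the largest shares higher in 22Rv1 (23.2% and 22%).

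The line difference was measured again in libraries that the mono-culture comparison did not use, namely 2 libraries of each line with RANKL in mono-culture, 2 beside MG63 osteosarcoma cells, and 2 beside RAW264.7 mouse monocytic cells with RANKL. These 12 libraries were shallower, with 9593426 to 15397563 scaled counts, and 10900 genes were tested. With RANKL, 1622 genes were higher in 22Rv1 (14.9%) and 1218 in C4-2 (11.2%). With MG63, the numbers were 1482 (13.6%) and 1251 (11.5%), and with RAW264.7 and RANKL they were 1509 (13.8%) and 1189 (10.9%). Of the genes higher in 22Rv1 in mono-culture, 1436 were tested here, of which 1264, 1258 and 1231 were called in the same direction with RANKL, MG63 and RAW264.7. Of those higher in C4-2, 1228 were tested here, and 973, 1024 and 960 were called in the same direction. In all 4 cultures, 1114 and 818 genes were called alike. The called genes of opposite direction were CNTN3 and SUSD2, both higher in 22Rv1 in mono-culture (log2 fold changes 1.05 and 1.1) and higher in C4-2 with RANKL (-1.96 and -1.28) and with RAW264.7 and RANKL (-2.27 and -1.1).

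Of the androgen-regulated genes, 25 were tested in these cultures, of which 13, 12 and 11 were higher in C4-2 with RANKL, MG63 and RAW264.7, and 3, 3 and 4 were higher in 22Rv1. The log2 fold change of KLK3 was -5.37, -5.15 and -5.09, and that of HPGD 8.05, 7.95 and 9.28. Of 10 neuroendocrine genes tested under the same kind of filter, 8 were higher in 22Rv1 in each of the 3 cultures. Other lists were less alike between cultures. Of 9 tested WNT targets, 4, 3 and 3 were higher in 22Rv1 and 1, 2 and 1 in C4-2. The mono-culture counts, 3 and 4, were of 15 tested genes, so the sets compared differ. Of 24 tested genes of cholesterol and fatty acid synthesis, 9, 4 and 9 were higher in 22Rv1, against 4 in mono-culture, and 4 in each culture were higher in C4-2. Of 28 tested cell cycle genes, 4, 3 and 4 were higher in 22Rv1 and 1 in each culture in C4-2. Of 15 tested JAK kinases, cytokine receptors and STATs, 1 was higher in 22Rv1 in each culture and 4, 6 and 5 were higher in C4-2. Whether these counts differ between cultures was not tested. Of 10 tested osteoblastic factors, 3 were higher in 22Rv1 in each culture, and 3, 4 and 3 were higher in C4-2. BMP2 was at 9.77, 9.87 and 6.57 and BMP7 at -7.28, -9.58 and -9.05, although fitted values against groups near 0 are not bounds.

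**Figure D4:**
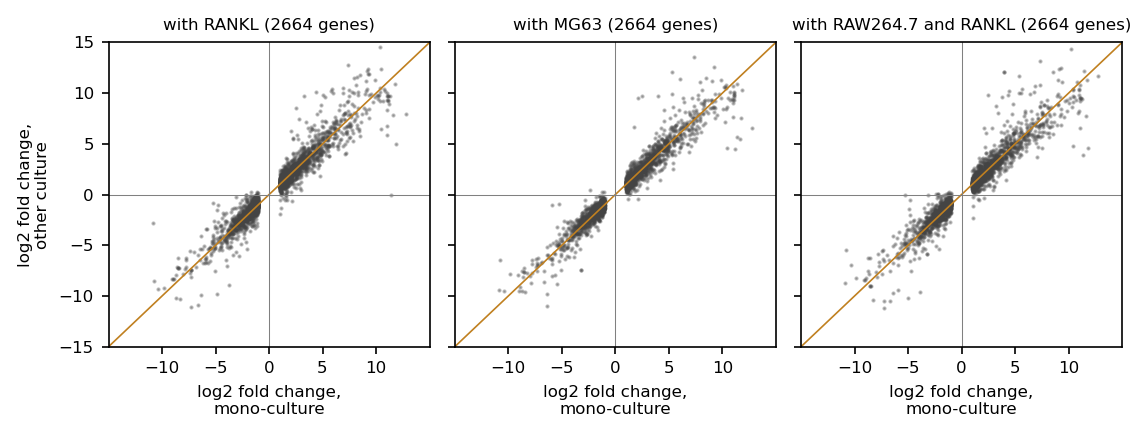
Log2 fold change of 22Rv1 over C4-2 in each of the other 3 cultures (y axis) against mono-culture (x axis) for the 2664 genes called in mono-culture and tested in both. Each point is 1 gene and the line marks equality, and almost all points lie in the quadrants of equal sign.

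The secreted proteins SERPINA3 and LCN2, named here as genes of interest to the study, were below the minimum of 100 scaled counts in mono-culture and were not tested there. SERPINA3 was at 0.14, 0 and 0 CPM in 22Rv1 and at 0.974, 1.31 and 0.925 CPM in C4-2. LCN2 was at 0 in all 22Rv1 libraries and at 0.0816, 0.297 and 0.231 CPM in C4-2. Of the 24 secreted acute-phase and antiprotease genes, 7 passed the minimum in mono-culture, of which 2 were higher in 22Rv1, 1 was higher in C4-2 and 4 were not called. Without the filter, 4 were higher in 22Rv1 and 5 in C4-2, and in the fit over 20 libraries 4 and 3. The gene higher in C4-2 was SLPI, by 520-fold. SERPINB1 was at 33.1, 34.4 and 33.8 CPM in 22Rv1 and at 0.187, 0.423 and 0.223 CPM in C4-2, and SERPINI1 was 4.27-fold higher in 22Rv1. In the fit of the other cultures, 13 genes of this list had 100 scaled counts in at least 1 of the 12 libraries, and genes enter this fit through the libraries where they are high. With RANKL, 4 were higher in 22Rv1 and 4 in C4-2, beside MG63 2 and 8, and with RAW264.7 and RANKL 2 and 3.

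Whether MG63 changed the line difference was tested as an interaction over 10 libraries. In both lines the libraries beside MG63 were shallower than those of mono-culture, so partner cell and library depth cannot be told apart. Of 12419 genes, the difference of 22Rv1 over C4-2 became more positive for 110 (0.886%) and more negative for 119 (0.958%). The most negative changes were those of CCL20, SAA1, SAA2, CACNA2D1 and the pseudogene SNX18P7. CCL20, a chemokine, was at 0 in all 3 C4-2 mono-cultures and at 15.5 and 17.3 CPM in the 2 C4-2 libraries beside MG63, and at 0.0784 CPM or less in every 22Rv1 library of both kinds. SAA1 and SAA2 encode acute-phase proteins with similar sequences. Beside MG63, SAA1 was at 19.7 and 18.4 CPM in C4-2 and at 0 and 0.237 CPM in 22Rv1, and SAA2 was at 26.3 and 16.9 CPM and at 0.688 and 0.147 CPM. The change of CACNA2D1 rests on 1 C4-2 library beside MG63 at 0.637 CPM, the other being at 0. The most positive changes were those of GCSHP5, ST20-MTHFS, NDUFC2-KCTD14, CDH12P1 and CDH12P3, which are pseudogenes or read-through genes that share sequence with other genes, and their levels are uncertain.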

How the data were processed

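Poly-A RNA of 36 cultures was sequenced by the authors from strand-specific libraries, and the deposited table holds estimated counts per transcript. Per the study's methods, abundances from kallisto were turned by tximport into counts scaled from TPM, and FastQC and hg19 are named in the submitters' processing notes. The values bear this scaling: for genes with 1 transcript, the lower quartile of values between 0 and 3 fell from 1.88 at lengths of 600 to 1000 bases to 0.419 at 4000 to 9000. They are thus not reads, and the test takes them as counts. The 36 value columns were all mapped to a culture by name. Each transcript was used once, values were summed per gene symbol and rounded, and 0.682% to 0.764% of the counts of the 6 libraries had no symbol and were left out. Positions are from GENCODE 29 on GRCh38, not from the deposited table, whose transcripts matched it in 95.39% of cases, and promoters are from RefSeq on GRCh38.p14.

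A gene was fitted if any library of the fit held 100 scaled counts of it. The fit used edgeR 4.0.16 (R 4.3.3), TMM factors and the quasi-likelihood test on the 6 mono-culture libraries, with Benjamini-Hochberg adjustment over all genes. Calls required both a difference of more than 2-fold and an adjusted p under 0.05. The other cultures were fitted over 12 libraries and the change with MG63 over 10. The biological coefficient of variation was 0.0572. The scripts were tested on simulated data.

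The genes named were fixed anchors (KLK3, FOXA1, HOXB13, ETV1, JAK1, FOLH1, SERPINA3 and LCN2), up to 4 called genes per list and direction, the 10 largest changes per direction at a mean of at least 20 CPM without overlap, and the 5 largest changes with MG63 per direction. B2M, CNTN3, FKBP5, KLK2, KLK4, ACP3, STEAP2, PMEPA1, KRT8, KRT18, ONECUT2, REST and SUSD2 were chosen after their values were seen. Some genes that this rule names and 1 of the lists are not reported here. The comparison and the 24 gene lists were chosen with earlier results of these data known. Alternatives were no filter, library-size and RLE scaling, DESeq2 1.42.0, unadjusted p-values, a replicate block, fits over more libraries and leaving out each library. After the data were seen, limma on log2(CPM + 1) and a fit with the length scaling undone (values times transcript length minus 200 bases) were added.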

Additional observations from a re-analysis of the deposited data

Results flagged for a closer look

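By the interaction test in edgeR, the line difference changed beside MG63 for 229 genes. Of these, 110 became more positive and 119 more negative in 22Rv1 relative to C4-2. Partner cell and library depth cannot be told apart in this test. The fitted log2 change was -14.59 for CCL20 (adjusted p = 0.011), -10.32 for SAA1 (0.022), -6.96 for SAA2 (8e-05), -5.85 for CACNA2D1 (0.03) and -5.49 for the pseudogene SNX18P7 (0.0095). It was 10.40 for GCSHP5 (1.7e-05), 8.57 for ST20-MTHFS (0.023), 8.40 for NDUFC2-KCTD14 (0.014), and 8.31 for both CDH12P1 and CDH12P3 (0.00057), which carry identical values. Several of these values are set against groups at or near 0 and are not fold bounds. CCL20 and SAA1 were no longer called without the third 22Rv1 mono-culture, the only mono-culture library above 0 for them (0.0784 and 0.0914 CPM). Without it the mono-cultures of both lines were at 0, so the change could not be estimated. That loss of the call therefore says nothing of how stable the change is. SAA1 was also no longer called with DESeq2 (adjusted p = 0.13) or without the first C4-2 culture beside MG63 (0.054). CACNA2D1 was at 0.25 without the second C4-2 culture beside MG63, and with the replicate number as a block it was at -5.85 with an adjusted p of 0.067. It also lost its call without the third 22Rv1 mono-culture, any 1 C4-2 mono-culture or the second 22Rv1 culture beside MG63 (adjusted p from 0.05 to 0.06). ST20-MTHFS was at 0.97 without the first 22Rv1 culture beside MG63 and not called without either C4-2 culture beside MG63 (0.074 and 0.068), and the same held for NDUFC2-KCTD14 (0.058 and 0.053). In limma on log2(CPM + 1), CACNA2D1 was at -0.15 (adjusted p = 0.73) and SNX18P7 at 0.08 (0.83). With the length scaling undone, CACNA2D1 was at -2.12 in edgeR (adjusted p = 0.27), and SAA1, SNX18P7, ST20-MTHFS, NDUFC2-KCTD14, CDH12P1 and CDH12P3 were below the minimum and not tested. Groups of 2 or 3 libraries were too small to look for single libraries that stand apart.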

How the results depend on the processing

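Without the filter on low counts, 3226 and 2275 genes were higher in 22Rv1 and in C4-2 in mono-culture, of 22684 tested, and of 22930 tested in the other cultures the numbers were 2789 and 1961 with RANKL, 2661 and 2013 with MG63, and 2696 and 1972 with RAW264.7. More genes were tested there by construction. With unadjusted p-values, 169 differences became more positive with MG63. Leaving out each library gave 1809 to 1912 and 1474 to 1500 genes in mono-culture, 1554 to 1624 and 1199 to 1291 with RANKL, 1398 to 1503 and 1224 to 1254 with MG63, 1439 to 1523 and 1171 to 1224 with RAW264.7, and 83 to 114 and 82 to 129 for the change with MG63. All other settings moved these counts by less than 1.5 times. JAK1 turned to -0.02 and -0.06 without the first library of 22Rv1 or of C4-2, and the change of CACNA2D1 with MG63 turned to 0.25 without the second C4-2 library beside MG63, and was between -6.86 and 0.25 without any 1 library. For the named genes in mono-culture, 2216 of 2264 values kept direction and call, and calls were lost in 46 values of BAX, CCNE1, COL1A1, FDPS, IL1R1, IRAK1, KREMEN1, MAGEA1, MT1F, NFKB1, PHLPP1, PMS1, STAT5A, ZNRF3 and a gene not reported here. For the named changes with MG63, 153 of 172 values kept direction and call, 17 lost the call and 2 reversed, the second being SNX18P7 at 0.08 in limma on log2(CPM + 1). The cause was not tested. Both settings added after the data were seen kept all counts of called genes within 1.5 times, with 1991 and 1576 genes in mono-culture with the length scaling undone and 1724 and 1347 in limma on log2(CPM + 1). They moved 6 and 4 of the counts per list by more. With the length scaling undone, log2 fold changes moved by more than 1.5 times in fold for AKR1C2 (4.12), DDC (-1.69), ETV1 (8.18), STAT6 (6.09), TNFRSF19 (-4.36), ALB (11.28), IRX4 (-10.13), and for BMP2, BMP7, LGR5, SLC6A15 and SSX3, which are near 0 in one line. With the replicate number as a block, 1891 and 1497 genes were called in mono-culture, 1624 and 1218 with RANKL, 1481 and 1255 with MG63, 1509 and 1190 with RAW264.7, and 106 and 105 for the change with MG63. Same-numbered mono-cultures deviated from their group means with correlations of -0.0249, 0.0132 and -0.00405, so the numbers did not pair them. The correlation was 0.138 for the cultures beside MG63, where 2 pairs are too few to decide, and the block ended the call of CACNA2D1 there and of ZNRF3 in mono-culture (-0.97).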

Other observations

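Within each line, genes of some chromosomes had shifted levels in the other cultures relative to the mono-culture without RANKL. Shifts are medians of the difference in log2(CPM + 1), relative to all genes. In 22Rv1, the 691 genes of chromosome 3 had a median of -0.11 with RANKL and -0.11 beside RAW264.7 cells with RANKL, and 69.6% and 68.6% of them lay below the median of all genes. In C4-2, the same chromosome was at 0.15 and 0.16, with 30.4% and 31.5% of genes below. Beside MG63 without RANKL the values of chromosome 3 were -0.03 in 22Rv1 and -0.01 in C4-2. The median line difference on chromosome 3 was accordingly 0.18 in mono-culture and 0.13 beside MG63, and -0.11 in both cultures with RANKL. Chromosome 3 was the only one with a shift of 0.1 or more in C4-2. In 22Rv1 the shifts were larger on chromosome 8, at -0.16 with RANKL and -0.16 beside RAW264.7 cells with RANKL (71.1% and 70.6% of 432 genes below), where C4-2 was at -0.02 and -0.03. Chromosome 18 was at -0.13 and -0.12 in 22Rv1 and at 0.03 and 0.01 in C4-2. The other shifts of that size in 22Rv1 were those of chromosome 22 with RANKL (0.11) and of chromosome 19 beside MG63 (0.12, 37.1% of genes below). Whether the cultures with RANKL came from another stock of each line was not tested.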
